A study of Mus musculus with 42 samples.

Results

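The liver disposes of nitrogen through the urea cycle, and 9 genes of this system were followed in the livers of APOE*3-Leiden mice. They were chosen by name from 54446 genes in the count table, and all 9 were among the 15574 genes that had enough counts to be tested. Nags, Cps1, Otc, Ass1, Asl and Arg1 encode the enzymes of the urea cycle together with the enzyme that makes its activator, and Gls2, Hal and Sds encode enzymes that release ammonia from glutamine, histidine and serine. Liver RNA was sequenced in 42 female mice, with 1 library per mouse.

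All mice carried the APOE*3-Leiden transgene, a human apolipoprotein E variant that slows the clearance of lipoprotein remnants, and the promoter of the transgene is not given in the sources used here. In the first group, 10 mice stayed on maintenance chow, and their age is not given. The other 32 mice were 8 to 14 weeks old at the start and received a Western-type diet (WTD) with 15% cocoa butter, 40.5% sucrose and 1% cholesterol, to which 0.05% sodium cholate was added from week 22. After 3 weeks of run-in they were divided into 16 mice on WTD alone and 16 mice that were also given atorvastatin, an inhibitor of HMG-CoA reductase, at 3.0 mg/kg/day and from week 5 at 4.5 mg/kg/day. Livers were collected at week 32. The composition of the chow is not given in the sources used here, and the effects of the components in which the diets differ, cholate included, cannot be told apart. All chow-fed mice carry AZ in their labels and all WTD-fed mice, treated or not, carry Gen, so this series of mice and the diet cannot be told apart either. Food was freely available, and feeding state and time of day at collection are not given in the sources used here. Urea cycle and amino acid genes are known to respond to feeding, glucagon and glucocorticoids.

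Ammonia enters the cycle in the mitochondria of hepatocytes, where Cps1 forms carbamoyl phosphate and Otc joins it to ornithine to make citrulline. In the cytosol Ass1 and Asl turn citrulline into arginine, and Arg1 splits arginine into urea and ornithine, which returns to the mitochondria. Periportal hepatocytes, which receive portal blood first, carry most of this pathway, whereas pericentral hepatocytes capture remaining ammonia as glutamine.

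Counts on genes were between 15661381 and 36224054 per mouse, and each of the 9 genes had at least 995 counts in every mouse. In 9 libraries (3 chow, 5 WTD and 1 atorvastatin) more than 20% of weakly expressed genes had no count. For fold changes and pairs of the 9 genes, values without these libraries are given where calls or directions differ. The marker list of hepatocytes summed to between 57490 and 171200 CPM, with 1 of its 10 genes, Trf, near 0. CPM is a gene's count as a share of its library's total, here scaled by TMM, which assumes that most genes do not change. A gene was called when its adjusted p was under 0.01, from the quasi-likelihood test of edgeR adjusted over all tested genes by the Benjamini-Hochberg procedure, and values after ± in log2 fold changes are SE.

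The genes lie on 6 chromosomes of GRCm38, and all are protein coding. Their positions are from GENCODE vM21. Cps1 is at chr1:67123026-67231259, Otc at chrX:10252305-10321024, Ass1 at chr2:31470207-31520672 and Asl at chr5:130011258-130029247. Arg1 is at chr10:24915221-24927484, Nags at chr11:102145513-102149477, Gls2 at chr10:128194457-128210004, Hal at chr10:93488768-93519304 and Sds at chr5:120476526-120483932. Exons of 3 of them overlap genes on the opposite strand. Nags shares 443 exonic bases with Gm11586, Gls2 shares 97 with Spryd4, and Sds shares 141 with Gm15690 and 360 with Plbd2. The libraries kept the strand, but whether counting used it is not given in the sources used here, and without it reads from these stretches could not be told apart.

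Promoter sequences from RefSeq (GRCm38.p6) were found for 4 of the 9 genes, Ass1, Hal, Nags and Otc. The 250 bases before the transcription start are shown for Hal, the member with the largest change both on WTD and with atorvastatin, and for Nags, the member with the smallest change under atorvastatin. Capitals mark matches, on either strand, to 4 motifs: TATAAA of the core promoter, the cAMP response element TGACGTCA, the C/EBP motif TTGCNNAA and the HNF4A motif CAAAGTCCA. The sequences run 5′ to 3′ on the plus strand, and no motif overlaps another. The Hal sequence is chr10:93488518-93488767 and the Nags sequence is chr11:102145263-102145512.
Hal: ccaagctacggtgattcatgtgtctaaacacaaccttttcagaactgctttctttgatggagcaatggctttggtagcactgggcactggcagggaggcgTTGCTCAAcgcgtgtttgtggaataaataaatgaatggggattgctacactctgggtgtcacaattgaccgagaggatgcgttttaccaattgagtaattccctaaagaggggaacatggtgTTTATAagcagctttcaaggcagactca
Nags: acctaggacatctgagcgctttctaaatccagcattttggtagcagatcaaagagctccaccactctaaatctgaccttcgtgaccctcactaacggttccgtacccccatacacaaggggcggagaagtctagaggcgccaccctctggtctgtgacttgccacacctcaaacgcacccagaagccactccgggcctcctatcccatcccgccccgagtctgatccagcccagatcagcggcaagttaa
The Hal promoter held the TATAAA motif on the minus strand at positions -28 to -23 from the start and a C/EBP match at -150 to -143. These letters are in 12.4% and 9.56% of the 32851 mouse promoter windows of this length. The cAMP response element is in 1.55% and the HNF4A letters in 0.384% of them, and neither was in the 4 windows. No searched motif was in the windows of Ass1, Nags or Otc. The share of G and C was 75.6% for Ass1, 55.6% for Nags, 45.6% for Hal and 43.6% for Otc, next to a median of 52.4% over all windows.

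Per kilobase of exon, Ass1 was the most abundant of the 9 genes in chow-fed mice, at 1740 ± 373 CPM per kilobase (SD, n = 10). The length was that of all annotated exons of a gene merged, not of a single transcript (4831 bases for Asl, 4241 for Otc). The order between genes depends on this choice. Arg1 followed at 612 ± 77.0 and Cps1 at 458 ± 97.2 CPM per kilobase. Asl at 156 ± 24.7, Gls2 at 148 ± 31.5, Otc at 127 ± 11.0 and Sds at 126 ± 35.3 CPM per kilobase had overlapping SD ranges. The Asl median of 160 was still above the highest Otc value, 149 CPM per kilobase. Hal was at 95.0 ± 18.3 and Nags, at 40.8 ± 4.12 CPM per kilobase, was the lowest. In WTD-fed mice Ass1, Arg1 and Cps1 kept the highest levels (929 ± 261, 321 ± 77.3 and 288 ± 78.1 CPM per kilobase, n = 16), and Hal, at 22.9 ± 12.8, lay beside Nags at 22.7 ± 3.68. In atorvastatin-treated mice Ass1 was at 1325 ± 342, Arg1 at 492 ± 116 and Cps1 at 469 ± 143 CPM per kilobase (n = 16), and the levels of Arg1 and Cps1 lay within each other's spread.

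**Figure D1:**
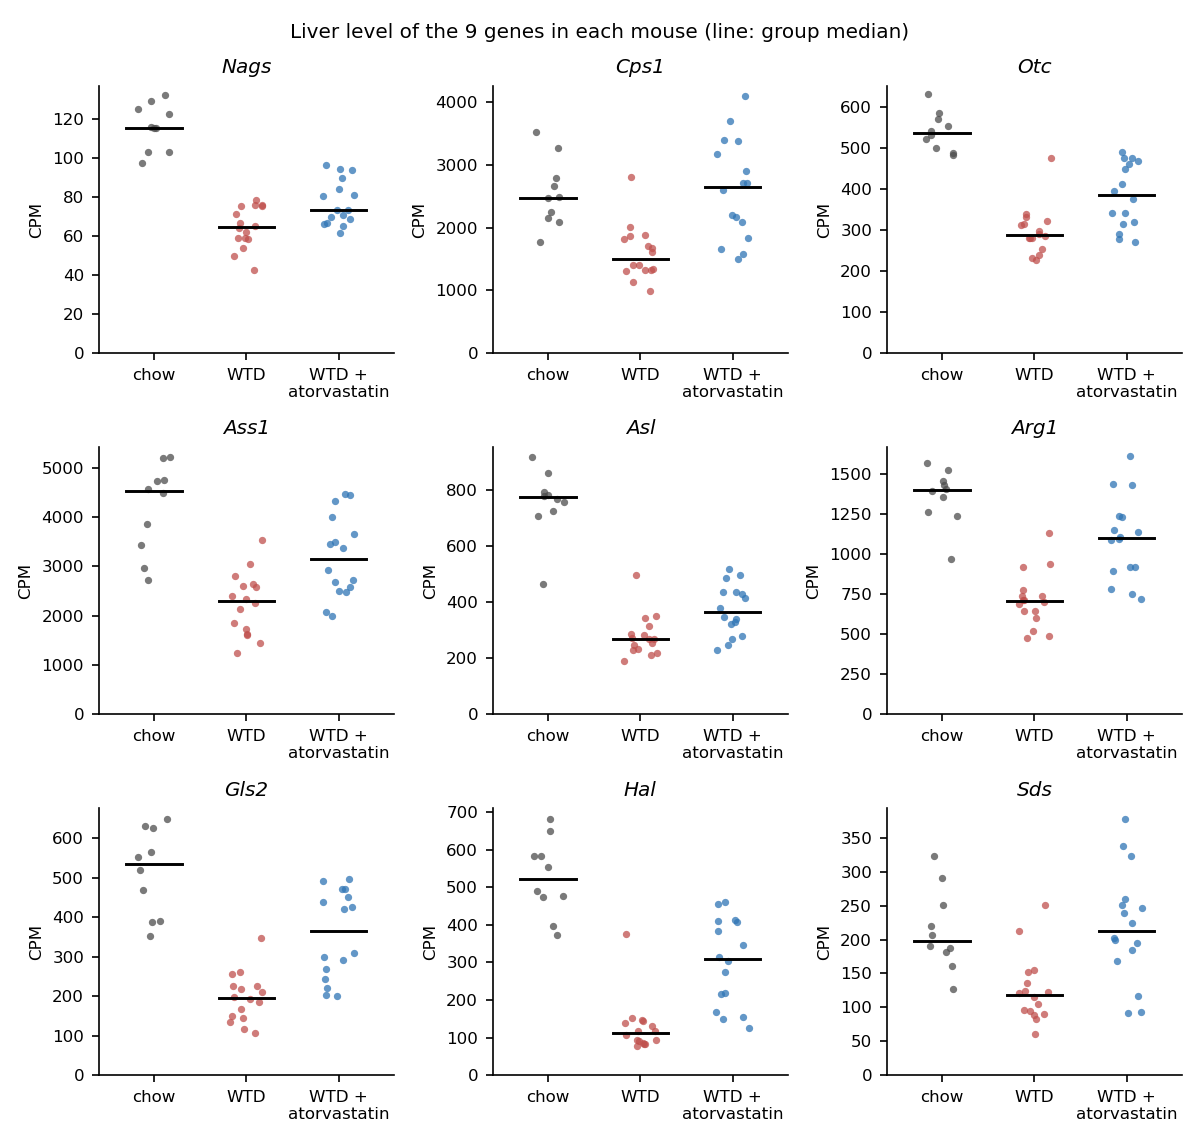
Level of the 9 genes in CPM on linear axes that start at 0, with 1 point per mouse (10 chow, 16 WTD, 16 WTD with atorvastatin) and a line at the group median. Otc, Nags and Gls2 had no WTD-fed mouse as high as the lowest chow-fed mouse, and a single WTD-fed mouse stood above the other 15 for Hal, at 376 CPM.

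The WTD was compared with chow to see how the diet changes nitrogen disposal genes. All 9 genes fell with TMM scaling, by 1.59-fold for Cps1 to 4.15-fold for Hal, but relative to the hepatocyte markers 3 of them (Asl, Gls2 and Hal) were lower and Cps1 and Sds changed sign. Of all tested genes 33.5% were called in this comparison and 16.0% were called lower, and the median log2 fold change was -0.91 over the 9 genes and 0.03 over all tested genes. Relative to the hepatocyte markers 313 of 15574 tested genes were called lower and 9867 higher. In bulk tissue fewer hepatocytes and less RNA per hepatocyte cannot be told apart. With TMM scaling Hal, Asl and Gls2 had the 3 largest falls, and the cycle's entry enzyme Cps1 had the smallest.

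In the mitochondrial steps, Nags, which makes the N-acetylglutamate that Cps1 needs to work, was between 97.4 and 132 CPM in chow-fed mice with a median of 115, and between 42.7 and 78.4 CPM with a median of 64.4 in WTD-fed mice. The groups did not overlap, and the log2 fold change was -0.85 ± 0.08 (SE, adjusted p = 3.74e-12). Cps1, the first enzyme of the cycle, ranged from 1772 to 3524 CPM (median 2478) on chow and from 985 to 2810 CPM (median 1501) on WTD. Of the 16 WTD-fed mice, 11 were below the lowest chow-fed mouse, and the log2 fold change was -0.67 ± 0.15 (adjusted p = 0.00022). Otc, which makes citrulline and is encoded on the X chromosome, ranged from 482 to 630 CPM (median 536) on chow and from 227 to 475 CPM (median 287) on WTD. All WTD-fed mice were below all chow-fed mice for Otc, with a log2 fold change of -0.86 ± 0.10 (adjusted p = 1.44e-10).

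In the cytosolic steps, Ass1, which joins citrulline to aspartate and so brings the second nitrogen into urea, ranged from 2730 to 5228 CPM (median 4534) on chow and from 1250 to 3546 CPM (median 2297) on WTD. The groups overlapped, with 13 of 16 WTD-fed mice below the lowest chow-fed mouse, and the log2 fold change was -0.91 ± 0.14 (adjusted p = 1.01e-06). Asl, which cleaves argininosuccinate to arginine and fumarate, ranged from 463 to 916 CPM (median 773) on chow and from 188 to 496 CPM (median 268) on WTD. The overlap was between the lowest chow-fed mouse and the highest WTD-fed mouse, and the log2 fold change was -1.44 ± 0.13 (adjusted p = 2.19e-13). Arg1, which releases urea, ranged from 973 to 1569 CPM (median 1405) on chow and from 474 to 1133 CPM (median 706) on WTD. A single WTD-fed mouse reached the chow range for Arg1, and the log2 fold change was -0.93 ± 0.12 (adjusted p = 3.23e-09).

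Among the enzymes that release ammonia, Gls2, the liver-type glutaminase, ranged from 353 to 649 CPM (median 536) on chow and from 106 to 347 CPM (median 196) on WTD. These groups did not overlap, and the log2 fold change was -1.39 ± 0.17 (adjusted p = 3.20e-09). Hal, histidine ammonia-lyase, which starts the breakdown of histidine, ranged from 375 to 682 CPM (median 523) on chow and from 78.1 to 376 CPM (median 112) on WTD. Its log2 fold change was -2.05 ± 0.22 (adjusted p = 2.92e-10), and 15 of 16 WTD-fed mice lay below the lowest chow-fed mouse. Sds, serine dehydratase, which turns serine into pyruvate and ammonia, ranged from 127 to 324 CPM (median 198) on chow and from 60.7 to 250 CPM (median 118) on WTD. The groups overlapped, with 11 of 16 WTD-fed mice below the chow range, and the log2 fold change was -0.77 ± 0.20 (adjusted p = 0.00201).

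Otc, Nags and Gls2, 3 of the 9 genes, were lower on WTD with no overlap between the groups, as were 2.43% of all tested genes. The highest WTD-fed mouse was the same animal, Gen#20 (WTD replicate 15), for 8 of the 9 genes, Nags being the exception. Among WTD-fed mice this liver also had the highest sum of hepatocyte markers (112600 CPM), the highest sum of pericentral markers (13730 CPM) and the lowest sums of macrophage (2307 CPM), matrix (1052 CPM) and cholangiocyte (211 CPM) markers, and its library was among the 9 that missed weakly expressed genes (21.9%). Leaving this mouse out was chosen after its values were seen, and 6 of the 9 genes then did not overlap, as did 4.22% of all tested genes. Hal then reached at most 152 CPM in the other 15 WTD-fed mice, against at least 375 CPM on chow. Chow replicate 4 was the lowest chow-fed mouse for 6 genes (Ass1, Asl, Arg1, Gls2, Hal and Sds), and Gen#9 (WTD replicate 7) the lowest WTD-fed mouse for the same 6.

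The unequal size of the falls did not depend on scaling. The log2 ratio of each pair of genes was taken within each mouse and compared between groups by two-sided permutation tests with 100000 permutations, a comparison added after the data were seen. Of 36 pairs, 20 differed between WTD and chow at a Benjamini-Hochberg adjusted p under 0.01. Hal fell relative to each of the other 8 genes, and the log2 ratio of Gls2 to Hal rose by 0.73 ± 0.11 (SE, permutation test, adjusted p = 4.24e-05). The ratio of Asl to Gls2 did not pass (difference -0.03 ± 0.09, adjusted p = 0.757), and both fell relative to each of the 6 genes Cps1, Otc, Ass1, Arg1, Nags and Sds. Among these 6 genes no pair passed, and the smallest adjusted p was 0.0121, for Cps1 and Ass1 (0.24 ± 0.08).

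**Figure D2:**
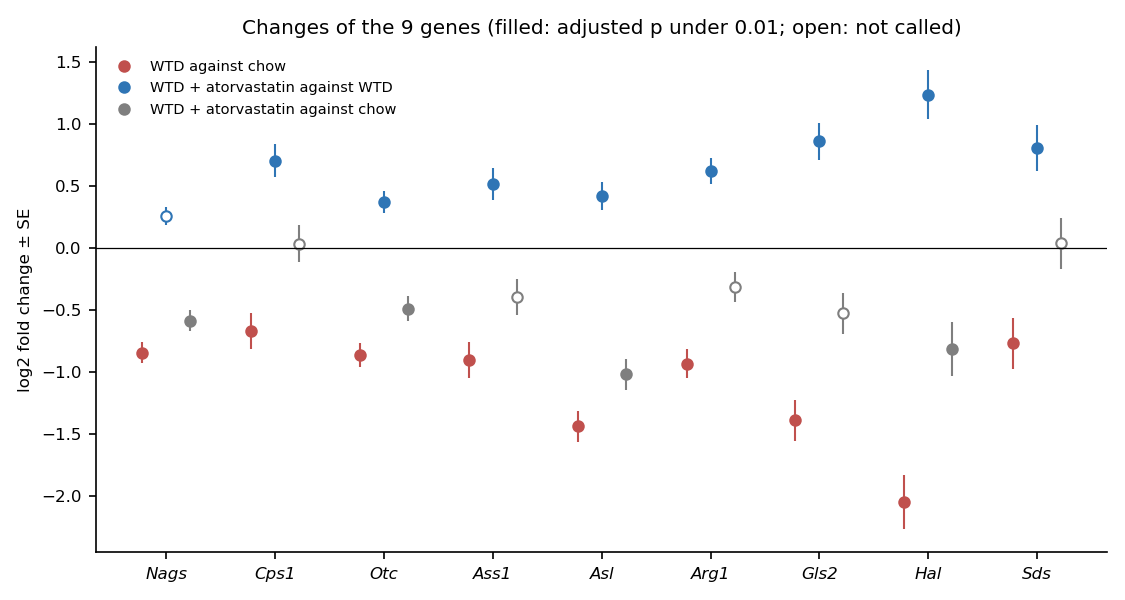
Log2 fold change with SE of the 9 genes in 3 comparisons with TMM scaling, with filled points for an adjusted p under 0.01 and open points otherwise. On WTD all 9 were lower than on chow, where scaling to hepatocyte markers turned Cps1 and Sds to 0.14 and 0.02, and with atorvastatin the points lay above 0, where that scaling turned Nags to -0.05.

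Atorvastatin-treated mice were compared with WTD-fed mice to see what treatment changed on the same diet. With TMM scaling 8 of the 9 genes rose, by 1.29-fold for Otc to 2.36-fold for Hal, and Nags was not called, while relative to the hepatocyte markers 4 rose (Cps1, Arg1, Gls2 and Hal) and Nags changed sign to -0.05. Of all tested genes 7.1% were called and 4.84% were called higher. Relative to the hepatocyte markers 125 of 15574 tested genes were called higher and 2439 lower. The median log2 fold change was 0.62 over the 9 genes and 0.00 over all tested genes. The 3 enzymes that release ammonia had the 3 largest estimated rises. In the ratios within each mouse, neither Gls2 nor Sds was separated from Cps1 or Arg1. The adjusted p of the permutation tests was 0.173 and 0.0167 for Gls2 and 0.481 and 0.24 for Sds.

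Of the mitochondrial genes, Nags ranged from 61.2 to 96.5 CPM (median 73.2) with atorvastatin, and its log2 fold change of 0.26 ± 0.08 did not pass (adjusted p = 0.0145). It was above the WTD median in 15 of 16 treated mice and was called in 1 of 10 alternative analyses. Cps1 ranged from 1502 to 4102 CPM (median 2648), with all 16 treated mice above the WTD median and a log2 fold change of 0.70 ± 0.13 (adjusted p = 0.000223). Otc ranged from 271 to 489 CPM (median 386), with 14 treated mice above the WTD median and a log2 fold change of 0.37 ± 0.09 (adjusted p = 0.00198). The treated and untreated groups overlapped for every member.

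Of the cytosolic genes, Arg1 ranged from 722 to 1615 CPM (median 1102) with atorvastatin, all 16 treated mice were above the WTD median, and the log2 fold change was 0.62 ± 0.10 (adjusted p = 6.03e-05). Ass1 ranged from 1983 to 4462 CPM (median 3148), with 14 of 16 mice above the WTD median and a log2 fold change of 0.51 ± 0.13 (adjusted p = 0.00454). Without atorvastatin replicate 6 or replicate 12 the call of Ass1 was lost (adjusted p up to 0.0102). Asl ranged from 227 to 518 CPM (median 363), with 13 of 16 mice above the WTD median. Its log2 fold change of 0.42 ± 0.11 was close to the threshold (adjusted p = 0.0085), and the call was lost in 6 of 10 alternatives and in 21 of 42 fits that each left out 1 mouse, with the change between 0.38 and 0.49 in those fits.

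Of the ammonia-releasing genes in treated mice, Gls2 ranged from 199 to 497 CPM (median 366), Hal from 124 to 460 CPM (median 309) and Sds from 91.9 to 378 CPM (median 213). The log2 fold changes were 0.86 ± 0.15 for Gls2 (adjusted p = 9.86e-05), 1.24 ± 0.20 for Hal (adjusted p = 4.66e-05) and 0.81 ± 0.18 for Sds (adjusted p = 0.00201). All 16 treated mice lay above the WTD median for Gls2 and Hal, and 13 did for Sds. The coefficient of variation of Hal was 38.7% in treated mice, 19.2% in chow-fed mice and 55.9% in WTD-fed mice, where it was 23.8% without WTD replicate 15, an omission chosen after its values were seen.

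No member had treated mice all above untreated mice (0 of 9), as 0.00642% of tested genes did. In the ratios within each mouse, 18 of 36 pairs differed between treated and untreated mice. Hal rose relative to each of the other 8 genes, and the log2 ratio of Nags to Hal fell by 0.98 ± 0.20 (adjusted p = 0.00052). Gls2 rose relative to Otc, Ass1, Asl and Nags, and both Cps1 and Arg1 rose relative to Otc, Asl and Nags. The ratio of Gls2 to Sds did not pass (difference 0.07 ± 0.10, adjusted p = 0.481). Sds did not rise relative to any other member at an adjusted p under 0.01.

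Atorvastatin-treated mice were set beside chow-fed mice to see which levels still differed from those on chow, and this comparison shares mice with both others. With TMM scaling 4 of the 9 genes were lower in treated mice (Otc, Asl, Nags and Hal), next to 25.0% of tested genes called and 10.7% called lower. Relative to the hepatocyte markers Asl was lower, Cps1 was higher, and Ass1 and Arg1 changed sign without a call. Under that scaling 239 of 15574 tested genes were called lower and 7046 higher. The log2 fold change was -1.02 ± 0.13 for Asl (adjusted p = 7.07e-09), -0.81 ± 0.22 for Hal (adjusted p = 0.00306), -0.59 ± 0.08 for Nags (adjusted p = 1.43e-07) and -0.49 ± 0.10 for Otc (adjusted p = 6.25e-05). Nags was the member without overlap between treated and chow-fed mice (1 of 9, next to 1.5% of tested genes). Gls2 at -0.53 ± 0.17 (adjusted p = 0.0117), Ass1 at -0.39 ± 0.15 (adjusted p = 0.0307) and Arg1 at -0.31 ± 0.12 (adjusted p = 0.0324) did not pass, and Gls2 was called in 6 of 10 alternatives. For Cps1 the difference was 0.03, with an approximate 95% interval of -0.26 to 0.33, and for Sds 0.04, with an interval of -0.37 to 0.44. These intervals leave room for differences of either sign.

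Asl was lower relative to its pathway neighbours Ass1 and Arg1 in this comparison. The mean log2 ratio of Asl to Arg1, which act in succession, was -0.86 on chow, -1.36 on WTD and -1.57 with atorvastatin. Treated mice differed from chow-fed mice by -0.70 ± 0.05 (adjusted p = 6.0e-05), and from WTD-fed mice by -0.20 ± 0.05 (adjusted p = 0.000858). The log2 ratio of Ass1 to Asl rose from 2.46 on chow to 2.99 on WTD (difference 0.53 ± 0.09, adjusted p = 2.57e-05), and it was 3.10 with atorvastatin, a difference from WTD that did not pass (0.11 ± 0.06, adjusted p = 0.082). Of 36 pairs, 18 differed between treated and chow-fed mice, among them Asl with 7 of the other 8 genes, Hal being the exception. This was not particular to Asl. Cps1 also differed with 7 of the other 8 genes, rising relative to each, with Sds the exception (adjusted p = 0.911).

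How many of the 9 changes were called depended on the scaling. The 9 usable hepatocyte markers, mostly genes of secreted plasma proteins such as Alb and Ttr, themselves all fell on WTD (median log2 fold change -0.90), and 5 of them rose with atorvastatin (median 0.33). Their falls on WTD were uneven, from -0.26 for Apob to -1.29 for Ttr. Under their own scaling 2 were still called higher and 3 lower on WTD. Values scaled to the markers are relative to this set of genes, and hepatocyte content was not measured. With the markers held at no change as a set, the median log2 fold change of all tested genes was 0.85 for WTD against chow. It was -0.30 for atorvastatin against WTD and 0.56 for atorvastatin against chow. TMM gave 0.03, 0.00 and 0.04 in the same order. Of all tested genes 65.4% were then called for WTD against chow, 9867 higher and 313 lower. For atorvastatin against WTD 16.5% were called, 125 higher and 2439 lower. For atorvastatin against chow 46.8% were called, 7046 higher and 239 lower. Under that scaling the WTD log2 fold change was -1.29 for Hal (adjusted p = 1.33e-08), -0.64 for Asl (adjusted p = 8.36e-08) and -0.59 for Gls2 (adjusted p = 0.000166). The other 6 genes lay between -0.13 and 0.14 and were not called. Relative to the shifted median of all genes, the 9 genes were lower by 0.71 (Cps1) to 2.13 (Hal) on the log2 scale. Subtracting that median largely undoes the marker scaling and returns values near those of TMM (-0.67 and -2.05). It is therefore not a separate result. With atorvastatin, scaling to the hepatocyte markers gave 0.93 for Hal, 0.54 for Gls2, 0.37 for Cps1 and 0.30 for Arg1, all called. It gave 0.51 for Sds (edgeR adjusted p = 0.0168), 0.19 for Ass1, 0.09 for Asl and 0.05 for Otc, which were not called.

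**Figure D3:**
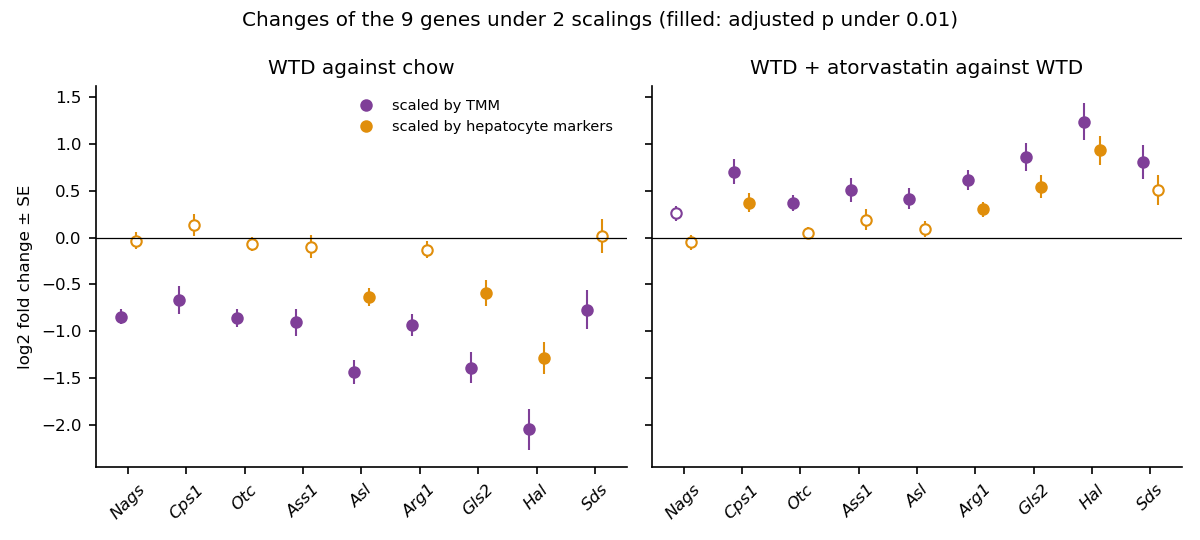
Log2 fold change with SE of the 9 genes with TMM scaling and with scaling to 9 hepatocyte markers, for WTD against chow and for atorvastatin against WTD, with filled points for an adjusted p under 0.01. On WTD Hal, Asl and Gls2 were lower under both scalings, whereas the other 6 genes lay near 0 under the second, Cps1 and Sds above it, and with atorvastatin Nags lay below 0 under the second.

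Markers of other cell types moved with the diet. For scale, the 15574 tested genes under TMM gave 2729 calls above chow and 2495 below it in WTD-fed mice. Treated mice gave 754 calls above untreated mice and 352 below them. The summed level of 9 macrophage markers ran from 380 to 567 CPM on chow, from 2307 to 4254 CPM on WTD and from 1689 to 3005 CPM with atorvastatin, and 8 of the 9 were called higher on WTD, and with atorvastatin 6 were called lower and 1 higher. The 10 stellate cell and matrix markers summed to between 353 and 650 CPM on chow, 1052 and 2584 CPM on WTD and 931 and 2407 CPM with atorvastatin, with 7 called higher on WTD and 4 lower with atorvastatin. The 3 not called on WTD were the stellate cell markers Des (log2 fold change -0.65), Acta2 (-0.50) and Lrat (0.51). All 8 cholangiocyte markers were called higher on WTD and 1 lower with atorvastatin, and the sums were 106 to 185, 211 to 887 and 240 to 629 CPM in the same order. The 10 lymphocyte markers summed to between 30.9 and 83.3 CPM on WTD and 31.4 and 122 CPM with atorvastatin, and to between 19.0 and 1419 CPM on chow, where chow replicate 1 was the highest, and 1 was called lower on WTD. The next highest chow-fed mouse summed to 52.6 CPM. The called gene, Ighm, reached 1358 CPM in chow replicate 1, next to means of 154 CPM on chow and 29.8 CPM on WTD. The difference in its means therefore rests on that mouse. The lowest p values belonged to Cd5l, Lyz2 and Csf1r (macrophages), Col1a2, Dcn and Col3a1 (matrix), Spp1, Epcam and Krt19 (cholangiocytes) and Ighm and Cd4 (lymphocytes, Cd4 not called at an edgeR adjusted p of 0.0191) on WTD. With atorvastatin they belonged to Lyz2, Trem2 and Cd68, to Lum, Col1a2 and Pdgfrb, to Spp1, Epcam and Krt19, and to Cd3d, Cd4 and Cd79a, where edgeR called 0 of 10 and 1 had an unadjusted p under 0.05. Of 8 markers of sinusoidal endothelium 2 were called higher and 3 lower on WTD (Clec4g, Lyve1 and Cdh5 leading), and 2 higher with atorvastatin (Clec4g, Kdr and Fcgr2b leading), whereas relative to the hepatocyte markers 6 were higher and 1 lower on WTD and 1 was lower with atorvastatin. Relative to the hepatocyte markers 9 macrophage, 8 matrix, 8 cholangiocyte and 2 lymphocyte markers were called higher on WTD, and 8 macrophage, 7 matrix and 6 cholangiocyte markers lower with atorvastatin. Under that scaling 65.4% of all tested genes were called on WTD, 96.9% of them higher. With atorvastatin 16.5% were called, 4.88% of them higher. The macrophage marker Itgam was listed at 0 in all 42 mice and the hepatocyte marker Trf in 39, and both were left out. Whether these zeros reflect expression or the counting was not tested. The part of these cell types in the changes of the 9 genes was not tested.

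Mouse-to-mouse differences within a group linked the 9 genes to these markers. In 27 relations added after the data were seen, the mean log2 CPM of each marker list was set against each gene over the 42 mice after subtracting group means, with 100000 permutations of mice within groups. All values come from the same libraries and are shares of a common total. The share of other genes that would pass is not given here. All 9 genes were negatively related to the macrophage list (r from -0.66 to -0.357), and 8 of them passed at an adjusted p under 0.01. For Hal, r was -0.628 (p = 7e-05, adjusted p = 0.000172), Spearman's rho was -0.573 (p = 0.00019), and r was -0.616 without the 2 mice farthest from the median. Within groups, r for Hal was -0.179 on chow, -0.697 on WTD and -0.806 with atorvastatin. Within chow-fed mice the 9 values ran from -0.506 (Otc) to 0.383 (Cps1).

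The matrix list was also negatively related to all 9 genes, and 8 passed. It was closest to Otc, with r = -0.775 (permutation p = 1e-05, the smallest that 100000 permutations can give, adjusted p = 5.4e-05), rho = -0.775 and r = -0.749 without the 2 farthest mice. For Otc, r within groups was -0.914 on chow, -0.788 on WTD and -0.885 with atorvastatin. On chow the other 8 genes lay between -0.409 (Hal) and 0.24 (Cps1). Some matrix markers were weak on chow, such as Timp1 at a mean of 0.465 CPM. Chow replicate 2 had the highest Otc (630 CPM) and the lowest matrix sum (353 CPM) of its group. Its library missed 57.3% of weakly expressed genes. The relations to marker lists were not repeated without the 9 libraries that missed weak genes. The hepatocyte list was positively related to all 9 genes and 7 passed, with the largest r for Otc (0.745, adjusted p = 5.4e-05, rho = 0.701, and 0.723 without the 2 farthest mice) and the smallest for Nags (0.387, adjusted p = 0.0167). For Otc this relation was -0.452 within chow-fed mice, 0.872 on WTD and 0.816 with atorvastatin.

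The 9 genes also varied with each other. Over the 42 mice, after subtracting group means, Pearson's r of log2 CPM was positive for all 36 pairs, with a median of 0.765 and a range from 0.293 to 0.914, and 33 pairs passed at a Benjamini-Hochberg adjusted p under 0.01 in permutation tests within groups (34 by Spearman's rho). The share of other gene pairs that would pass is not given here. Some genes outside the 9 were as close to a member, with r = 0.926 for Selenbp1 and Asl. Among the 36 pairs Asl and Arg1 were the closest, with r = 0.914 (p = 1e-05, adjusted p = 1.38e-05), rho = 0.876, and 0.895 without the 2 mice farthest from the median of Asl. Ass1 and Gls2 reached 0.893 (rho = 0.878, 0.87 without the 2 farthest mice), Hal and Sds 0.865 (rho = 0.867, 0.83 without them) and Ass1 and Cps1 0.853 (rho = 0.857, 0.846 without them), each with an adjusted p of 1.38e-05. Within groups the median r over the pairs was 0.588 on chow, 0.774 on WTD and 0.825 with atorvastatin.

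Over all 42 mice Nags had the lowest values. Its r lay between 0.293 (with Hal, p = 0.082, adjusted p = 0.082, rho = 0.268) and 0.521 (with Asl, p = 0.00083, adjusted p = 0.00103, rho = 0.569, and 0.484 without the 2 farthest mice). Without the 9 libraries that missed weak genes, its r lay between 0.475 (with Hal, adjusted p = 0.00906) and 0.683 (with Ass1, adjusted p = 8e-05), all 36 pairs passed, and the pairs without Nags lay between 0.554 and 0.955. With levels scaled to the hepatocyte markers, 35 of 36 pairs remained positive with a median r of 0.625, and none of the 8 pairs with Nags passed. On chow Otc was not positively related to 3 genes, at -0.178 with Cps1, -0.129 with Ass1 and -0.0753 with Arg1, whereas on WTD these values were 0.72, 0.746 and 0.849.

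**Figure D4:**
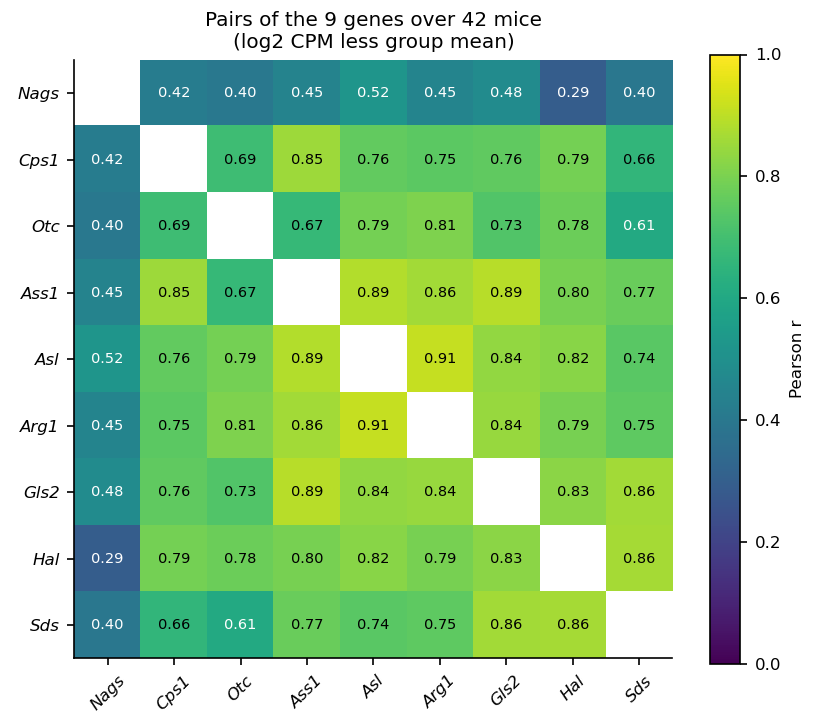
Pearson's r of log2 CPM between the 9 genes over 42 mice after subtracting group means, on a colour scale from 0 to 1. The row of Nags holds the lowest values, 0.293 to 0.521, and Asl with Arg1 the highest, 0.914.

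Over 9097 other genes with a mean of at least 10 CPM, those whose pattern over the 42 mice was most like a member, after subtracting group means, recurred between members. Hgd, of tyrosine breakdown, was among the 3 closest to Cps1 (r = 0.85), Ass1 (0.903), Asl (0.896) and Arg1 (0.89). Sephs2 (0.834) and Ces2a (0.826) completed the list of Cps1, Aldh1l1 (0.901) and Gnmt (0.891) that of Ass1, Selenbp1 (0.926) and Aldh1l1 (0.915) that of Asl, and Selenbp1 (0.874) and Mdh1 (0.873) that of Arg1. Otc was closest to Pecr (0.913), Gstz1 (0.893) and AI182371 (0.893). Gls2 was closest to Aldh1b1 (0.835), Gnmt (0.823) and Uroc1 (0.823), Sds to Aldh1b1 (0.8), Ivd (0.777) and Cyp2c23 (0.75), and Hal to Ivd (0.883), Ces2a (0.862) and 0610005C13Rik (0.848). The closest to Nags were Nectin1 (0.732), Ptms (0.701) and Aes (0.692). These values describe likeness over mice, and they carry no test.

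The genes that supply the cycle changed less evenly. Of 16 listed carriers and supplying enzymes 14 were tested, 8 were called lower and 2 higher on WTD (median log2 fold change -0.54), whereas relative to the hepatocyte markers 1 was lower and 7 higher (median 0.25). With atorvastatin 6 were called higher (median 0.29), and relative to those markers 1 was higher and 1 lower. Of all tested genes, scaling to those markers called 65.4% on WTD, 96.9% of them higher, and 16.5% with atorvastatin. Oat and Aldh4a1 were listed at 0 in all mice and were not tested, and whether this reflects expression or the counting was not examined. Slc25a15, which exchanges ornithine for citrulline across the mitochondrial membrane, changed by -0.70 ± 0.10 on WTD (adjusted p = 5.28e-08) and by 0.34 ± 0.09 with atorvastatin. Slc25a13, which exports aspartate for Ass1, changed by -0.71 ± 0.10 (adjusted p = 6.87e-08) and by 0.41 ± 0.09. With atorvastatin the smallest p values were those of the glutamate carrier Slc25a22 (0.54 ± 0.10, adjusted p = 0.000126), Prodh of proline breakdown (0.74 ± 0.15, adjusted p = 0.000624) and the aspartate aminotransferase Got2 (0.35 ± 0.07, adjusted p = 0.000755).

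Arg2, Glud1 and Glul did not follow the median of the list with TMM scaling. Arg2, the mitochondrial arginase, picked after its values were seen, was at 0.332 CPM on chow and 2.83 CPM on WTD, where it was called higher, and some mice had no count. Glud1, glutamate dehydrogenase, was at 1243 CPM on chow and 1205 CPM on WTD (log2 fold change -0.04 ± 0.07, adjusted p = 0.639), and Glul, glutamine synthetase, at 1252 and 1072 CPM (-0.22 ± 0.16, adjusted p = 0.262). Both were picked after their values were seen.

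**Figure D5:**
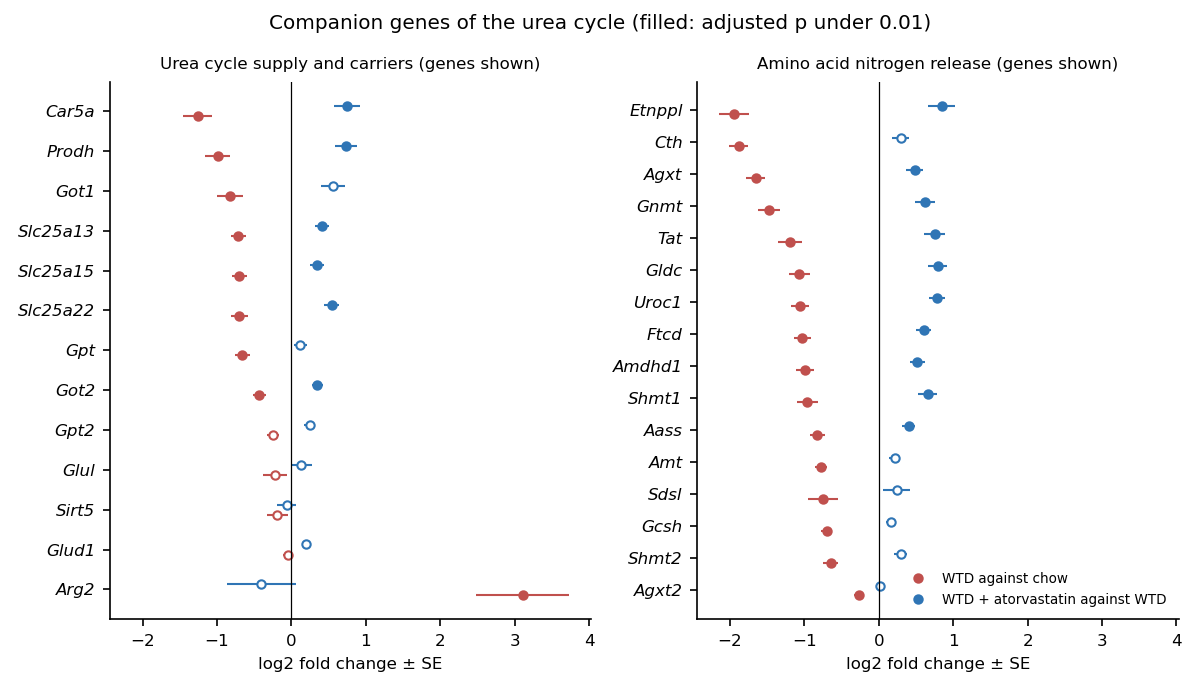
Log2 fold change with SE of tested supply and carrier genes and 16 genes of amino acid nitrogen release with TMM scaling, for WTD against chow and for atorvastatin against WTD, with filled points for an adjusted p under 0.01. All 16 genes of nitrogen release were called lower on WTD, where scaling to hepatocyte markers left 5 lower and 1 higher, and Arg2 was called higher.

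Other genes of amino acid breakdown made up a list of 16. All 16 were called lower on WTD (median log2 fold change -1.01), and relative to the hepatocyte markers 5 were lower and 1 higher (median -0.22). With atorvastatin 10 of 16 were called higher (median 0.50), and relative to those markers 5 were higher and 1 lower (median 0.17). In treated mice 11 were called lower than on chow (median -0.46), next to 3 lower and 1 higher relative to the markers. Of 15574 tested genes, scaling to the markers called 313 lower on WTD and 125 higher with atorvastatin. Cth (-1.89 ± 0.13, adjusted p = 4.51e-17), Agxt (-1.66 ± 0.13, adjusted p = 2.215e-15) and Gnmt (-1.48 ± 0.15, adjusted p = 2.51e-11), enzymes of cysteine, glyoxylate and glycine metabolism, had the smallest p values on WTD. The other genes of histidine breakdown were called in the same directions as Hal. Uroc1, urocanase, the step after Hal, changed by -1.06 ± 0.12 on WTD (adjusted p = 2.79e-10) and by 0.78 ± 0.11 with atorvastatin (adjusted p = 1.01e-05). Ftcd, the last step, changed by -1.03 ± 0.11 and 0.60 ± 0.10 (adjusted p = 1.19e-10 and 6.03e-05), and Amdhd1, between them and picked after its values were seen, by -0.99 ± 0.12 and 0.52 ± 0.10 (adjusted p = 4.965e-10 and 0.000394). Gldc of glycine cleavage was the other of the 3 leading genes with atorvastatin (0.79 ± 0.13, adjusted p = 3.73e-05).

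Transporters of amino acids and ammonia gave 7 of 9 tested called lower on WTD (median log2 fold change -0.63) and 3 higher with atorvastatin (median 0.43), whereas relative to the hepatocyte markers 3 were higher on WTD and 2 with atorvastatin. The leading genes were the betaine and GABA carrier Slc6a12 (-1.09 ± 0.14 and 0.81 ± 0.13), the urea and glycerol channel Aqp9 (-0.59 ± 0.09) and the aromatic amino acid carrier Slc16a10 (-0.63 ± 0.10) on WTD, with the glutamine carrier Slc38a3 (0.78 ± 0.16) and Slc38a4 (0.46 ± 0.10) beside Slc6a12 under atorvastatin. Rhbg, an ammonia channel, had no count in 22 mice and was not tested. Of 12 listed regulators 7 were called lower and 1 higher on WTD and 4 higher with atorvastatin, whereas relative to the hepatocyte markers 4 were higher on WTD and, with atorvastatin, edgeR called 0 of 12 (6 at an unadjusted p under 0.05). Under that scaling 65.4% of all tested genes were called on WTD, 96.9% of them higher, and 16.5% with atorvastatin. Sirt3 (-0.93 ± 0.10, adjusted p = 5.27e-11), a mitochondrial deacetylase, the glucagon receptor gene Gcgr (-0.73 ± 0.08, adjusted p = 1.60e-10) and Creb3l3 (-0.75 ± 0.11, adjusted p = 1.18e-07) led on WTD. Hnf4a (0.33 ± 0.07, adjusted p = 0.000639) and Sirt3 (0.40 ± 0.09, adjusted p = 0.001525) led with atorvastatin. Hnf4a, a regulator of hepatocyte genes, was at 574 CPM on chow, 463 CPM on WTD and 580 CPM with atorvastatin. It is also among the hepatocyte markers used for scaling, so its value under that scaling is not independent of the reference.

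Pericentral genes were also called lower. Of 12 other periportal markers 6 were called lower and 2 higher on WTD (median log2 fold change -0.43), whereas 1 was lower and 6 were higher relative to the hepatocyte markers. Of 11 tested pericentral markers 9 were called lower on WTD (median -0.89), whereas 3 were higher relative to the hepatocyte markers. With atorvastatin 4 periportal (median 0.24) and 3 pericentral markers (median 0.33) were called higher, and relative to the hepatocyte markers 1 of each list was higher and 1 periportal marker lower. Of all tested genes that scaling called 65.4% on WTD, 96.9% of them higher, and 16.5% with atorvastatin. The leading periportal genes were Igf1 (-0.79 ± 0.08), Cyp2f2 (-2.58 ± 0.26) and Pigr (-0.63 ± 0.10) on WTD and Cyp2f2 (1.62 ± 0.23) and Fbp1 (0.35 ± 0.08) with atorvastatin. Cyp27a1 (-0.92 ± 0.09), Rgn (-0.90 ± 0.11) and Cyp1a2 (-1.02 ± 0.13) led the pericentral list on WTD and also with atorvastatin (0.33 ± 0.08, 0.40 ± 0.10 and 0.78 ± 0.12). Clock genes were measured because time of day is not given. Of 11 tested, 1 was higher and 2 lower on WTD (Clock, Cry1 and Per1 leading), where 4 were higher relative to the hepatocyte markers, and with atorvastatin edgeR called 0 of 11 (Nr1d1, Tef and Per2 leading), of which 2 had an unadjusted p under 0.05.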

How the data were processed

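Strand-specific, paired-end mRNA libraries were made from the livers of 42 mice, 1 library per mouse. Per the labels and the study's methods, the authors trimmed reads with Trimmomatic, aligned them with STAR 2.5 to GRCm38 with the GENCODE vM19 annotation and counted them with HTSeq 0.6.1p1, and the deposited values are raw counts per gene. Between 1.998% and 2.778% of reads lay in no feature, 5.43% to 6.568% were ambiguous and 4.074% to 5.361% were not uniquely aligned, and these entries were left out. Symbols came from GENCODE vM21 (54409 of 54446 identifiers) and promoters from RefSeq.

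Weak genes were removed by filterByExpr, with a minimum count of 10 and a minimum total of 15, and the rest were TMM-scaled and fitted with edgeR 4.0.16 (quasi-likelihood, robust, R 4.3.3) over all 42 mice. DESeq2 1.42.0, limma 3.58.1 (voom), other scalings, other filters, fits to 2 groups, fits without 9 libraries and fits without each mouse were alternatives. Scaling to hepatocyte markers used the 9 of 10 with a count in every library. Log2 CPM used a prior count of 2. Correlations and ratios of genes were tested with 100000 permutations of mice, two-sided. The fitting code was tested on simulated data in which few genes changed, in random directions. That setting does not test the choice of scaling. Intervals of fold changes are approximate.

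All 9 genes were named, with the 3 smallest p values of each other list and, for each gene, the 3 genes with the most similar pattern and a mean of at least 10 CPM. Genes that the rule named but that are missing from the text are not reported here. Other genes are said to have been picked after their values were seen. The members and lists were chosen with earlier results of these data known. The ratio tests, the relations to marker lists and the omission of WTD replicate 15 were added after the data were seen. Counts give the precision of each library only, and p-values set group differences against the spread between mice. Mice were group-housed and atorvastatin was mixed into the diet, and which mice shared a cage is not given in the sources used here. The tests treated mice as independent.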

Additional observations from a re-analysis of the deposited data

Results flagged for a closer look

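Asl in chow-fed mice had a lowest value, in chow replicate 4, that stood apart from the other 9 mice, at 462.5 CPM against a group median of 773 CPM. Its gap to the nearest mouse was 0.534 of the group's range, above Dixon's critical share for 10 mice at the 95% level. The 9 genes were each examined in the chow group, and chance alone marks about 1 in 20 groups. The same mouse was the lowest of its group for Ass1, Arg1, Gls2, Hal and Sds, which were not marked, and it had the highest sum of pericentral markers on chow (14120 CPM). A part of pericentral cells in these values was not tested.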

How the results depend on the processing

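Scaling to hepatocyte markers left 3 of the 9 genes called for WTD against chow, 4 for atorvastatin against WTD and 2 for atorvastatin against chow, where TMM gave 9, 8 and 4. It turned Cps1 (0.14) and Sds (0.016) on WTD, Nags (-0.050) with atorvastatin, and Ass1 (0.10) and Arg1 (0.17) for atorvastatin against chow. For that last comparison limma-voom called 7 genes, as did an adjusted p under 0.05, and limma-voom turned Cps1 (-0.043) and Sds (-0.12), as did leaving out the 9 libraries that missed weak genes (-0.035 and -0.057). The cause was not tested. Without each mouse in turn, the counts were 9 to 9, 6 to 9 and 4 to 5, the log2 fold change of Cps1 for atorvastatin against chow ran from -0.023 to 0.096 and that of Sds from -0.0355 to 0.12. Over the 9 genes and 3 comparisons, with other alternatives 235 values kept direction and side of the threshold, 16 lost a call, 10 gained a call and 9 changed sign. The share of called genes that were higher was 52.2%, 68.2% and 57.0% with TMM and 96.9%, 4.88% and 96.7% with hepatocyte scaling, and for atorvastatin against WTD 54.9% with RLE, 50.6% with DESeq2 and 52.8% with 2 groups. No paired analysis was possible because the mouse numbers name different animals in each group.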
